A study of Mus musculus with 6 samples.

Results

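The E2F transcription factor family was examined in Dgcr8-deficient mouse embryonic stem cells (ESCs). Its members were taken by name: the 8 genes E2f1 to E2f8 and the dimer partner genes Tfdp1 and Tfdp2, which is 10 of the 22180 genes measured. Each of the 10 has a single row in the deposited table. All 6 samples are Dgcr8-/- ESCs, in which primary miRNA transcripts are not processed and canonical miRNAs are not made. Of these, 3 received a control hairpin, and 3 the hairpin sh-miR-302, which supplies a mimic of miR-302. The series describes the samples of a group as independent biological samples. The labels used here do not say how long the hairpins were expressed or whether a group came from 1 clone. Values are log2 expression levels from single-colour arrays, so a difference of 1 is a doubling. Precision is limited by having 3 arrays a group.

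E2F proteins bind DNA as dimers with a DP protein, encoded by Tfdp1 or Tfdp2, and control genes needed for entry into S phase and for DNA replication. E2F1, E2F2 and E2F3 are known as activators that the retinoblastoma protein holds in check until cyclin-dependent kinases phosphorylate it, while E2F4 and E2F5 mostly repress together with the related pocket proteins p107 and p130. E2F6 represses without a pocket protein, as part of a variant Polycomb complex that silences germ line genes, and E2F7 and E2F8 are atypical repressors that bind DNA without a DP partner. ESCs have a short G1 phase in which the retinoblastoma checkpoint is weak, and miR-302 and related miRNAs are known to shorten G1 in these cells.

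The samples differ by a miRNA whose seed, bases 2 to 8, selects its targets, and the sequences below show how close that seed is to that of the miR-17 family, which is reported to target E2F1, E2F2 and E2F3. They are RefSeq mature sequences (build GRCm38.p6), 5′ to 3′, with bases 2 to 8 in capitals. The labels do not name the miR-302 family member that the hairpin encodes.
mmu-miR-302b-3p: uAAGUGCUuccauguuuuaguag
mmu-miR-302d-3p: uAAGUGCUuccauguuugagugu
mmu-miR-302c-3p: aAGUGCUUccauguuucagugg
mmu-miR-294-3p: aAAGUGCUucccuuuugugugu
mmu-miR-17-5p: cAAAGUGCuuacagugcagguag
mmu-miR-20a-5p: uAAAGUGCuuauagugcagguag
The seed of miR-302b, miR-302d and miR-294, a miRNA of the ESC-specific miR-290 cluster, is AAGUGCU. In the RefSeq entry miR-302c begins 1 base later, so its bases 2 to 8 read AGUGCUU. The seed of miR-17 and miR-20a is AAAGUGC, which shares the run AAGUGC with the first group but lies 1 base further along. No site for any of these was searched in the members' transcripts.

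The arrays were alike in their overall distribution, with medians between 5.60 and 5.62. MiR-302 replicate 1 lay farther from the other arrays of its group than any other array did: the root-mean-square difference from the mean of the other 2 was 0.32, against 0.22 for each of the other miR-302 arrays and 0.17 to 0.19 for the control arrays. Results are therefore given with and without it. Reported miR-302 family targets were lower in the miR-302 samples, Ccnd2 by a log2 change of −3.16 ± 0.13 (SE), Lefty1 by −2.66 ± 0.14 and Lefty2 by −2.97 ± 0.11 (limma, adjusted p = 0.000124, 0.000264 and 8.84e-05). Dgcr8 shares its row with another gene and was not analysed here. None of the 8 ESC markers, among them Pou5f1, Nanog and Sox2, was called (limma, adjusted p under 0.05), and 3 of the 8 had an unadjusted p under 0.05. At or above the median level, where all 8 lie, 26.7% of genes were called. Without miR-302 replicate 1, Sox2 and Zfp42 were called lower.

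With miR-302, E2f2 fell and E2f6 rose, and the difference of the other 8 members did not pass the test. E2f2 was 1.88-fold lower and E2f6 1.51-fold higher. The share of members called, 2 of 10, is close to the 16.4% called among all 22180 genes (limma, adjusted p under 0.05, either direction; 9.25% lower and 7.18% higher) and lies below the 26.7% (15.9% lower and 10.9% higher) among the 11090 genes at or above the median level, to which all 10 members belong. The median log2 change of the 10 members was −0.10, against 0.01 over all genes and −0.03 over those at or above the median level. The values of the 2 groups did not overlap for 4 members, 3 lower (E2f2, E2f5 and E2f8) and 1 higher (E2f6), against 35.8% of all genes (19.0% lower and 16.8% higher) and 53.7% of those at or above the median level. Fitted on the latter genes only, the test called 38.7% of them and 3 members, E2f2, E2f5 and E2f6. These shares lie near or below those of the measured genes, and the results concern single members.

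**Figure D1:**
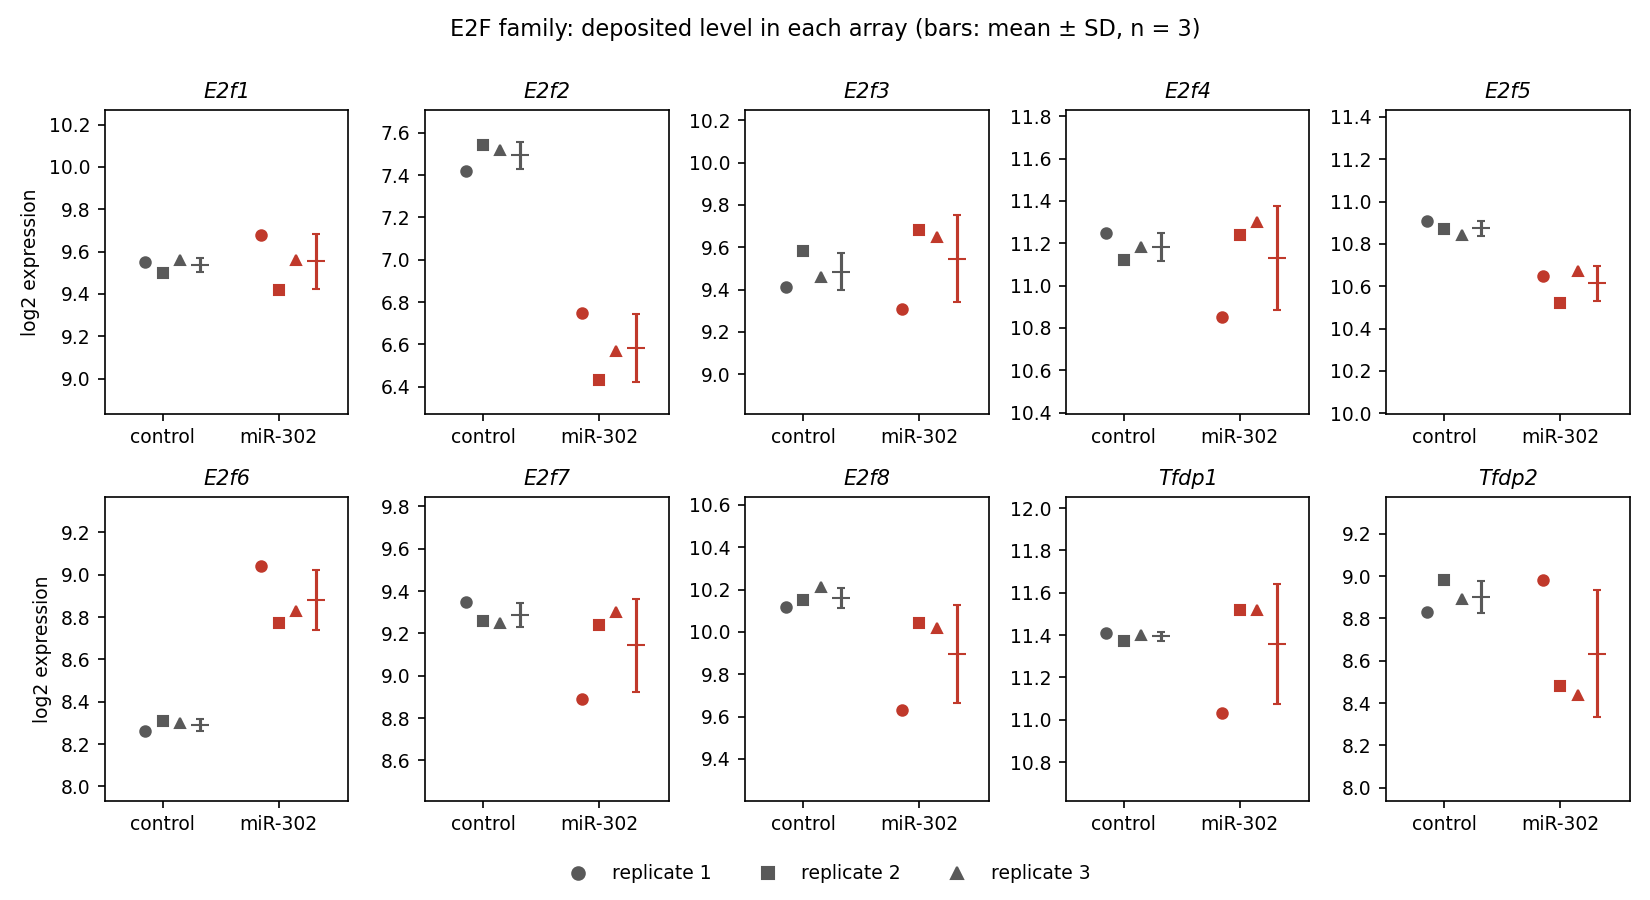
Log2 expression of each of the 10 members in the 6 arrays (vertical axes, each spanning the same range of log2 units), by group, with symbols for the replicate and bars for mean ± SD (n = 3). E2f2 and E2f6 separate widely between the groups, while in E2f4, E2f7, E2f8 and Tfdp1 miR-302 replicate 1 lies below all other arrays.

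Of the activators, E2f2 alone was called. Its level was 7.42, 7.54 and 7.52 in the control hairpin samples and 6.75, 6.43 and 6.57 in the miR-302 samples. The groups did not overlap, and every miR-302 array lay at least 0.67 below every control array. The log2 change was −0.91 ± 0.10 (SE; 95% interval −1.14 to −0.68; limma, adjusted p = 0.0025). It was called in all 6 fits on 5 arrays, with log2 changes from −0.99 to −0.83 and adjusted p up to 0.0174. E2f1, the founding member and a driver of both S phase entry and apoptosis, was 9.55, 9.50 and 9.56 in control cells and 9.68, 9.42 and 9.56 with miR-302. The miR-302 arrays lay on both sides of the control arrays. The log2 change of E2f1 was 0.02 ± 0.09 (SE; limma, adjusted p = 0.928), with a 95% interval from −0.19 to 0.22, which is 0.88-fold to 1.16-fold. E2f3, which encodes the third activator, was 9.41, 9.58 and 9.46 in control cells and 9.31, 9.68 and 9.65 with miR-302. Here miR-302 replicate 1 was the lowest of all 6 arrays and the other 2 miR-302 arrays the highest. Its log2 change was 0.06 ± 0.12 (SE; 95% interval −0.21 to 0.34; limma, adjusted p = 0.773), and 0.18 (95% interval −0.01 to 0.37; adjusted p = 0.151) without miR-302 replicate 1.

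The change of E2f2 was set against that of the other activators within each array. The log2 difference E2f2 minus E2f1 was −2.13, −1.96 and −2.04 in control cells and −2.93, −2.99 and −2.99 with miR-302, a shift of −0.93. For E2f2 minus E2f3 the shift was −0.97. These pairs were formed with the members' changes known, so the shifts restate those changes on the scale of single arrays and were not tested.

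Among the pocket protein partners, E2f4 and E2f5, which encode the repressor E2Fs of resting and early G1 cells, neither was called. E2f5 was 10.91, 10.87 and 10.84 in control cells and 10.65, 10.52 and 10.67 with miR-302. All miR-302 arrays lay below all control arrays, by a smaller margin than for E2f2. The log2 change of E2f5 was −0.26 ± 0.07 (SE; 95% interval −0.43 to −0.09; limma, adjusted p = 0.0554), just outside the threshold. The test was passed without miR-302 replicate 1 (−0.28, adjusted p = 0.0442) and not in the other 5 fits on 5 arrays (adjusted p up to 0.164). E2f4 was 11.25, 11.12 and 11.18 in control cells and 10.85, 11.24 and 11.30 with miR-302. MiR-302 replicate 1 was the lowest array, and of the other 2 miR-302 arrays 1 lay within the control range and 1 above it. The log2 change of E2f4 was −0.05 ± 0.13 (SE; 95% interval −0.36 to 0.25; adjusted p = 0.83) and turned to 0.09 (adjusted p = 0.444) without that array.

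E2f6 was the member that rose. It was 8.26, 8.31 and 8.30 in control cells and 9.04, 8.77 and 8.83 with miR-302. The control arrays lay within 0.05 of each other and all miR-302 arrays at least 0.46 above them. The log2 change of E2f6 was 0.59 ± 0.09 (SE; 95% interval 0.38 to 0.80; limma, adjusted p = 0.00714), and 0.51 (adjusted p = 0.00334) without miR-302 replicate 1, its highest array. It was called in all 6 fits on 5 arrays, with adjusted p up to 0.0367. Within arrays, E2f6 minus E2f5 shifted by 0.85 and E2f6 minus E2f4 by 0.64 with miR-302, pairs also formed with the changes known and not tested.

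The atypical members E2f7 and E2f8, which restrain E2F1 in late S phase and are known for their part in the endocycles of placental giant cells, were not called. E2f8 was 10.12, 10.15 and 10.21 in control cells and 9.63, 10.04 and 10.02 with miR-302. The groups did not overlap, but replicate 1 lay about 0.4 below the other miR-302 arrays. The log2 change of E2f8 was −0.26 ± 0.12 (SE; 95% interval −0.55 to 0.02; limma, adjusted p = 0.201), and −0.13 (adjusted p = 0.211) without that array. E2f7 was 9.35, 9.26 and 9.25 in control cells and 8.89, 9.24 and 9.30 with miR-302. Replicate 1 was again the lowest array, and the other 2 miR-302 arrays overlapped with the controls. Its log2 change was −0.14 ± 0.12 (SE; adjusted p = 0.479) and −0.02 (95% interval −0.18 to 0.15; adjusted p = 0.894) without replicate 1.

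Of the dimer partners, Tfdp1 encodes DP1, the main partner of E2F1 to E2F6, and Tfdp2 encodes DP2. Tfdp1 was 11.41, 11.37 and 11.40 in control cells and 11.03, 11.52 and 11.52 with miR-302. Replicate 1 lay below and the other 2 miR-302 arrays above all control arrays, and the log2 change of −0.04 ± 0.14 (SE; adjusted p = 0.898) became 0.13 (95% interval −0.02 to 0.27; adjusted p = 0.195) without replicate 1. Tfdp2 showed the opposite split. It was 8.83, 8.98 and 8.89 in control cells and 8.98, 8.48 and 8.44 with miR-302. The log2 change of Tfdp2 was −0.27 ± 0.15 (SE; limma, adjusted p = 0.292) with all arrays, where replicate 1 equalled the highest control array, and −0.44 (95% interval −0.62 to −0.26; adjusted p = 0.00937) without it.

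MiR-302 replicate 1 was the highest or lowest array of its group for 9 of the 10 members. In a group of 3 only the middle array is neither, and the share over all genes was not counted for this array. Its offset from the mean of replicates 2 and 3 reached 0.3 or more in size for 6 members, against 23.6% of genes at or above the median level. It was −0.49 for Tfdp1, −0.42 for E2f4, −0.40 for E2f8, −0.38 for E2f7 and −0.36 for E2f3, and 0.52 for Tfdp2. For E2f2 and E2f6 it was 0.25 and 0.24, beside log2 changes of −0.91 and 0.59, which were −0.99 and 0.51 without this array. The members called were 1 higher and 3 lower (E2f2, E2f5 and Tfdp2) without this array, and 1 each way when another array was dropped.

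**Figure D2:**
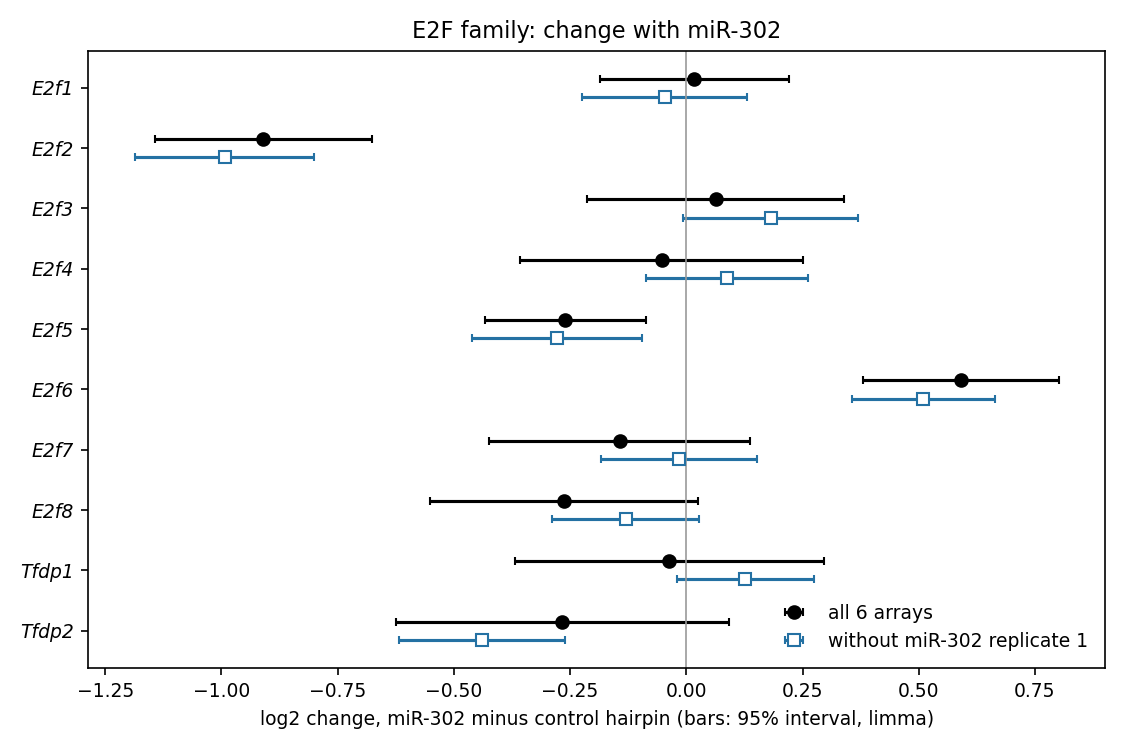
Log2 change of each member, miR-302 minus control hairpin (horizontal axis, log2 units), with 95% limma intervals, from all 6 arrays (filled circles) and without miR-302 replicate 1 (open squares). The intervals of E2f2 and E2f5 lie below 0 and that of E2f6 above 0 in both fits, that of Tfdp2 lies below 0 only in the fit without the array, and the sign of E2f1, E2f4 and Tfdp1 differs between the fits.

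Several E2F genes are known to carry E2F sites in their own promoters, and the members' promoters are shown to compare the called members E2f2 and E2f6 with E2f3, which was not called. RefSeq windows (GRCm38.p6) from 250 bases before to 50 after a gene start were at hand for 8 members in 12 windows. Some RefSeq starts lie inside the gene: only 6 windows, those printed here and those of E2f7 and Tfdp1, have their start within 100 bases of the 5′ end of the gene. The start lies 466 bases inside the gene for the window of E2f1, 477 for E2f8, 1673 and 8508 for the second windows of E2f3 and E2f2, and 62459 and 63002 for those of Tfdp2. Apart from a count of E2F matches, these 6 inner windows are not described further. Nothing is said here of the promoters at the 5′ ends of E2f1, E2f8 and Tfdp2. The windows are written 5′ to 3′ on the gene's strand, with matches to an E2F word in capitals. The words searched were TTTCCCGC, TTTGGCGC, TTTCGCGC and TTTGCCGC on both strands.
E2f2, chr4:136172024-136172323, plus strand: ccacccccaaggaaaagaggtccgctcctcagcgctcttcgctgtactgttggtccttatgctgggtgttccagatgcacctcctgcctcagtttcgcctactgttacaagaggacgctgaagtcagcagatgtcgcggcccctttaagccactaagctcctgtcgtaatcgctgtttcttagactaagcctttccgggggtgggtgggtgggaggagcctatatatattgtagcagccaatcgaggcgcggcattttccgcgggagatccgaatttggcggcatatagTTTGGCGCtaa
E2f6, chr12:16810715-16811014, plus strand: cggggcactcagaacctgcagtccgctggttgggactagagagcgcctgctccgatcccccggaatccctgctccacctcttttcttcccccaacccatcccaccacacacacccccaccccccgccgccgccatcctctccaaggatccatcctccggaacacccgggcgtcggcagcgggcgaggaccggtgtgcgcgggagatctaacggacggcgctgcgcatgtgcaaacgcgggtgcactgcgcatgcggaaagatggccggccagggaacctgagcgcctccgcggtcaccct
E2f3, chr13:29986014-29986313, minus strand: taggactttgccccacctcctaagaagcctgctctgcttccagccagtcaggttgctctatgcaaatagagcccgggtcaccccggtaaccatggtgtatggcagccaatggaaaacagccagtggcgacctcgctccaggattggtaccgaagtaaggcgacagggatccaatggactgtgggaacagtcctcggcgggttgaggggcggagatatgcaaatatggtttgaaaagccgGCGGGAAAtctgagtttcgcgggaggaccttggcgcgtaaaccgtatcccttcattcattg
The E2f2 window holds TTTGGCGC from base 40 after the start, and the E2f3 window TTTCCCGC on the opposite strand at base −11. E2f7 has TTTCCCGC on the opposite strand at base −198, and Tfdp1 TTTCGCGC on the opposite strand at base −43 of its first window. The E2f6 window holds none of these words. Of the 6 windows near a 5′ end, 5 have a match, and they belong to 4 of 5 members, the 2 overlapping windows of Tfdp1 sharing theirs. Among 32544 distinct RefSeq windows of this length, inner starts included, 2.28% have one. With inner starts included, the members have a match in 5 of 12 windows and in 4 of 8 members, so their inner windows hold none. No share was computed for RefSeq windows near a 5′ end alone. Elements other than the E2F words were searched on both strands too, and no match to them in the members' windows overlaps a match to an E2F word. The cell cycle element CHR, TTTGAA, is present near the 5′ end in E2f3 alone, and in 17.8% of all windows. The box CCAAT is found there in E2f2, E2f3 and E2f7, and in 37.4% of all windows. The GC box, GGGCGG, is in the windows of E2f3, E2f7 and Tfdp1, and in 35.9% of all windows. The E2F word is thus found in a member that fell and in 3 whose difference did not pass the test.

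Upstream of the E2Fs lie the genes of pocket proteins, G1 cyclins, their kinases and the kinase inhibitors. Of 17 measured, 6 were called lower, 2 higher and 9 were not called (limma, adjusted p under 0.05), beside 15.9% lower and 10.9% higher among genes at or above the median level, where 16 of the 17 lie. Their median log2 change was −0.28, against −0.03 over those genes, and −0.17 without miR-302 replicate 1. No list was tested against other genes. Cyclin D genes moved apart: Ccnd2 (above) and Ccnd1 fell, Ccnd1 from 11.84, 11.74 and 11.80 to 11.26, 11.19 and 11.29, and Ccnd3 rose from 10.74, 10.70 and 10.68 to 11.32, 11.20 and 11.27. Cdkn1b, which encodes the kinase inhibitor p27, fell by 0.55 ± 0.07 (SE) on the log2 scale. Cdkn1c, the imprinted gene of the inhibitor p57, was 5.46, 6.01 and 5.84 in control cells and 6.52, 8.28 and 8.20 with miR-302 (adjusted p = 0.0353), with replicate 1 between the control arrays and the other 2. Cdkn1c kept its call when miR-302 replicate 1 was dropped and lost it when any other array was. The pocket protein genes Rbl1 (p107) and Rbl2 (p130), partners of E2F4 and E2F5, were both lower, by log2 changes of −0.48 ± 0.07 and −0.76 ± 0.14 (SE; adjusted p = 0.00729 and 0.0152), and Rb1 changed by −0.28 (adjusted p = 0.072). Rbl2 was called in 2 of the 6 fits on 5 arrays. Rbl2 and Rb1 were picked with their values in view, outside the naming rule. Dropping miR-302 replicate 1 left 7 genes of the list lower and 2 higher, and dropping another array 4 or 5 lower and 1 higher.

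Of 33 measured E2F target genes of DNA replication and S phase, 9 were called lower, 1 higher and 23 were not called. All 33 lie at or above the median level, where 26.7% of genes were called either way and 15.9% lower. The share called either way is near that background, and the share called lower, 9 of 33, is above 15.9%. Of the 33, 28 had a log2 change below 0, and the median was −0.16. The salvage kinase gene Tk1 fell from 10.50, 10.39 and 10.35 to 9.83, 9.71 and 9.55 (log2 change −0.72 ± 0.09 SE; limma, adjusted p = 0.00451). Chaf1b, a subunit of the chromatin assembly factor that follows the replication fork, fell by 0.60 ± 0.07 (SE) on the log2 scale, and Rbl1, itself an E2F target, is given above. Cdc25a, which encodes the phosphatase that activates Cdk2, was the gene called higher, from 9.92, 9.97 and 9.90 to 10.16, 10.23 and 10.15 (adjusted p = 0.0465). No array overlapped between the groups for Tk1 or Cdc25a. The replication genes Mcm5 and Mcm10, the licensing gene Cdc6 and the cyclin gene Ccne1 lay within 0.05 of 0 in log2 change, values chosen after they were seen. Dropping miR-302 replicate 1 gave 12 lower and 1 higher, and dropping another array 4 or 5 lower and 0 higher, Cdc25a then losing its call.

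Genes of the DREAM and MuvB complex, which represses cell cycle genes with E2F4 and p130 in resting cells and activates later genes with B-Myb, numbered 9, of which 2 were called lower and 7 were not called (median −0.14). All 9 belong to the genes at or above the median level, of which 26.7% were called either way and 15.9% lower. The 2 of 9 called, both lower, lie below the first share and above the second. The genes called were the core subunit gene Lin9, at 9.79, 9.73 and 9.79 against 9.41, 9.49 and 9.47 (adjusted p = 0.0218), and the Myb family gene Mybl1, at 10.28 to 10.34 against 9.99 to 10.03 (adjusted p = 0.0224). Neither was called when an array other than miR-302 replicate 1 was dropped, and 3 genes were lower when that one was. Of 4 E2F target genes of apoptosis, Bcl2l11, which encodes the BH3 protein Bim, was higher by 0.66 ± 0.12 (SE; limma, adjusted p = 0.0153) and the other 3 were not called. It was called in 3 of the 6 fits on 5 arrays.

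**Figure D3:**
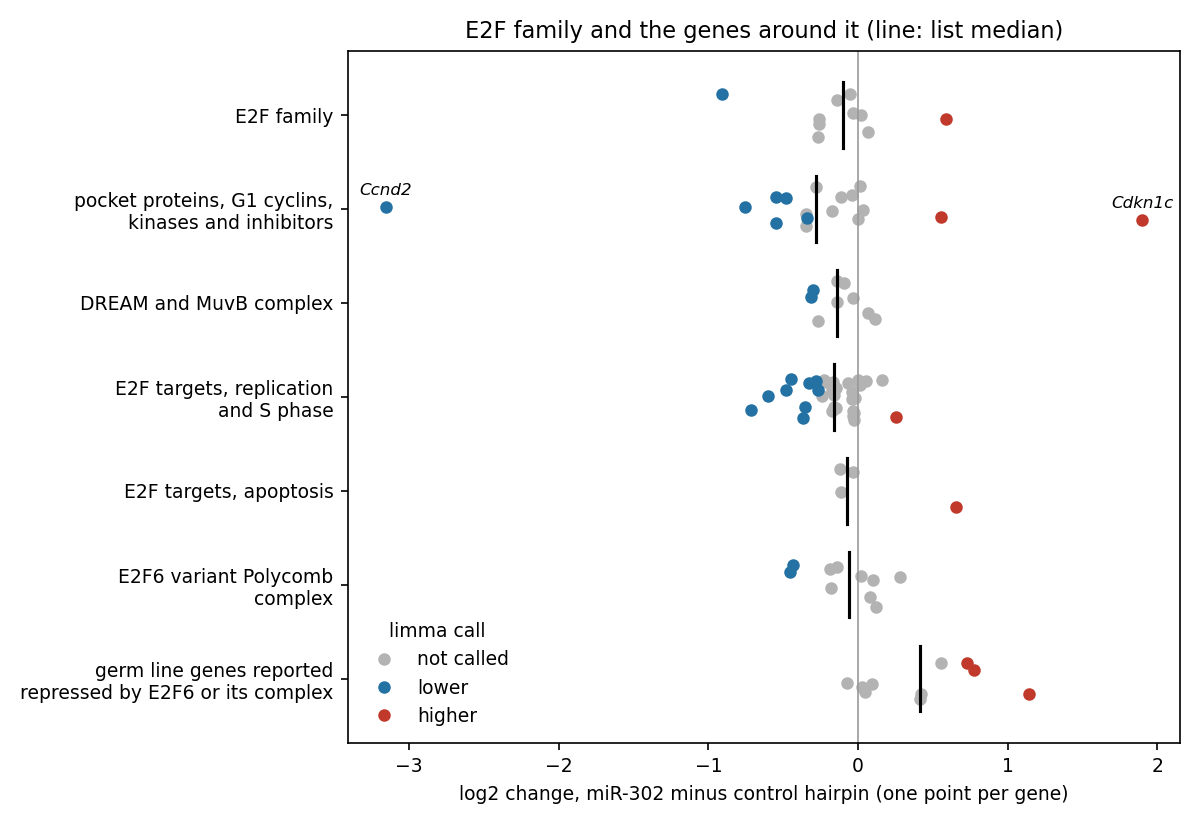
Log2 change of each measured gene, miR-302 minus control hairpin (horizontal axis, log2 units), in the E2F family and in 6 lists of genes around it (1 point per gene, coloured by the limma call; vertical lines mark list medians). The medians lie between −0.28 and −0.06 except that of the germ line genes, at 0.42.

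Because E2f6 rose, the genes of its variant Polycomb complex and germ line genes reported to be repressed by it were described. Of 10 complex genes 2 were lower and 8 were not called (median −0.06). All 10 lie at or above the median level, where 26.7% of genes were called either way and 15.9% lower. The 2 of 10 called, both lower, lie below the first share and above the second. Pcgf6, the defining subunit, was 11.02, 11.13 and 11.06 in control cells and 10.58, 10.74 and 10.58 with miR-302 (log2 change −0.44 ± 0.08 SE; limma, adjusted p = 0.0124), and was called in 3 of the 6 fits on 5 arrays. Yaf2, an adaptor subunit, fell from 8.16, 8.21 and 8.12 to 7.64, 7.77 and 7.72 (−0.45 ± 0.07 SE; adjusted p = 0.00794), and was called in all 6. Mga and Max, which tether the complex to DNA, changed by 0.02 and 0.12 and were not called.

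Of 10 measured germ line genes 3 were called higher, none lower and 7 were not called, with a median log2 change of 0.42, which was 0.07 without miR-302 replicate 1. Among all genes 7.18% were called higher, and 10.9% of those at or above the median level, where 6 of the 10 lie. Tdrkh, which encodes a Tudor protein of the piRNA pathway, rose from 5.18, 5.60 and 5.11 to 6.07, 6.66 and 6.59 (log2 change 1.14 ± 0.19 SE; limma, adjusted p = 0.0106). It was called in all 6 fits on 5 arrays. The germ cell helicase gene Ddx4 was 8.70, 8.93 and 8.89 in control cells and 10.04, 9.34 and 9.33 with miR-302 (adjusted p = 0.0499), and Taf7l, a testis-expressed subunit gene of a general transcription factor, 3.06, 3.03 and 3.49 against 4.34, 3.86 and 3.70 (adjusted p = 0.0406). The groups did not overlap in these 3 genes. Ddx4 lost its call in 5 and Taf7l in 4 of the 6 fits, and the low values of Taf7l cannot be told from background. The control values of Tdrkh lie at or below the array medians and cannot be told from background either. Its miR-302 values lie above those medians. Replicate 1 was far above the other miR-302 arrays in several members that were not called: Dazl was 8.11 there against 5.34 and 5.31, with 6.11 to 6.34 in control cells, and Mael was 8.97 against 7.90 and 7.87, with 7.77 to 7.87 in control cells. Dazl was called lower without that array (limma, adjusted p = 0.00162), and its values in miR-302 replicates 2 and 3 lie below the array medians. Dazl, Mael, Mga and Max were picked with their values in view. Dropping miR-302 replicate 1 gave 3 higher and 1 lower in the list, and dropping another array 1 or 2 higher and 0 lower.

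**Figure D4:**
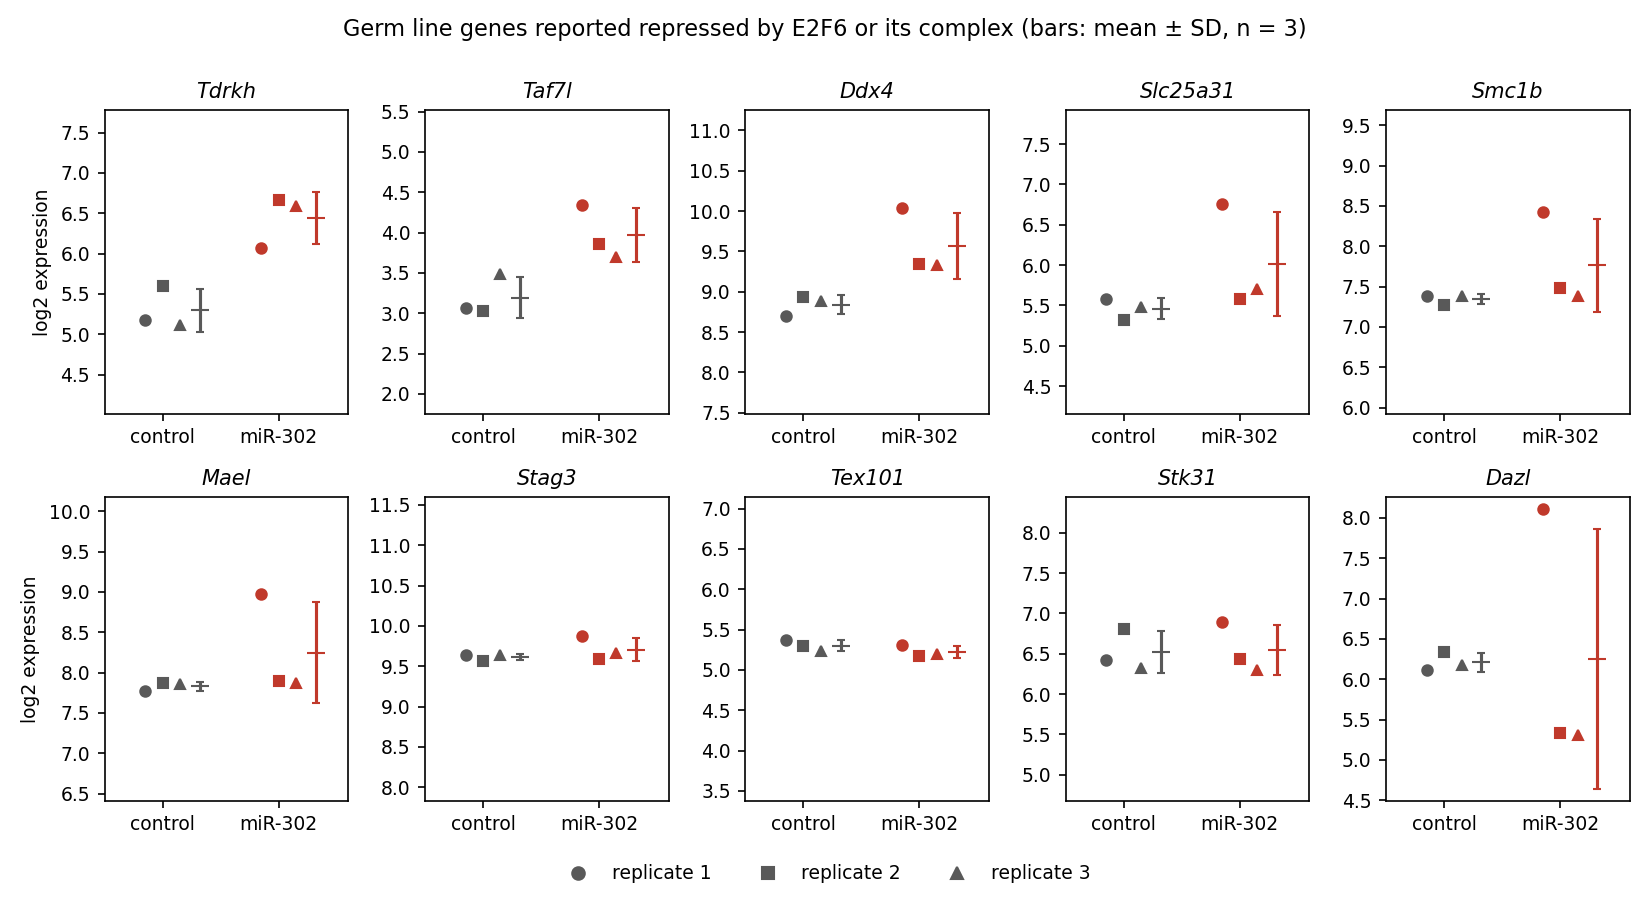
Log2 expression of the 10 measured germ line genes reported to be repressed by E2F6 or its complex in the 6 arrays (vertical axes, each spanning the same range of log2 units), with symbols for the replicate and bars for mean ± SD (n = 3). Tdrkh, Taf7l and Ddx4 separate between the groups, while in Slc25a31, Smc1b, Mael and Dazl miR-302 replicate 1 alone lies above the control arrays by more than 1.

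Markers of other cell types also differed between the groups, and their part in the changes of E2f2 and E2f6 was not tested. In such bulk RNA, fewer cells of a type and less RNA per cell cannot be told apart. Over all genes 7.18% were called higher and 9.25% lower, and 10.9% and 15.9% of those at or above the median level. At or above that level lie 8 of 11 trophectoderm, 4 of 12 primitive endoderm and 7 of 12 fibroblast markers. Counts of 2 of 12 below are not far from these shares. Of 11 trophectoderm markers 8 were called higher and none lower (11 higher without miR-302 replicate 1, 6 or 7 when another array was dropped), among them the lineage factors Eomes, Gata3 and Ascl2 (log2 changes 1.36, 1.48 and 1.82). The mean log2 level of the list was 6.55 to 6.67 in the control arrays, 7.63 in miR-302 replicate 1 and 8.27 and 8.29 in the other miR-302 arrays. Of 12 primitive endoderm markers 5 were higher and 2 lower (list mean 5.68 to 5.77 in control and 6.10 to 6.14 in miR-302 arrays): the basement membrane genes Lamb1 and Lama1 and the receptor gene Pdgfra rose by 1.87, 1.17 and 0.84, and Cubn and the lineage factor Gata4 fell by 0.50 and 0.43 on the log2 scale. The values of Pdgfra (4.29 to 5.47) and Cubn (5.60 at most) lie at or below the array medians and, like those of Taf7l, cannot be told from background. Of 12 fibroblast markers 2 were higher, the smooth muscle genes Tagln and Acta2, by 3.87 and 3.66, and 2 were lower, Fn1 and Thy1 (list mean 6.44 to 6.53 in control and 6.96 to 7.21 in miR-302 arrays; list median change 0.11). Without Tagln and Acta2 the mean of the other 10 genes was 6.47 to 6.60 in control and 6.48 to 6.58 in miR-302 arrays. Gata4 and Thy1 were not called when an array other than miR-302 replicate 1 was dropped.

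The genes most like each called member in their pattern were sought by the root-mean-square difference over the 6 arrays, after the control mean of each gene was subtracted, among genes at or above the median level. For E2f2 these were Bicd2, a dynein adaptor gene (difference 0.02; log2 change −0.91), Rnf125, a ubiquitin ligase gene (0.03; −0.91), and Trim2, also a ubiquitin ligase gene (0.04; −0.88). For E2f6 they were Lrpap1, a receptor chaperone gene (0.02; 0.59), Enc1, which encodes an actin-associated protein (0.04; 0.54), and Nmnat2, an enzyme gene of NAD synthesis (0.04; 0.61). The measure covers 6 arrays in 2 groups, so genes with a like difference between the groups score as alike.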

How the data were processed

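Total RNA of 6 samples was measured on single-colour arrays. The authors deposited RMA values, per the submitters' processing notes, which were read as log2 because RMA gives that base. The base itself, the RMA version and the build: not given in the sources used here. RMA equalises the arrays' distributions and hides any shift common to all genes. Of 33649 rows, 23521 name 1 gene in the platform annotation, 1814 several and 8314 none. The row with the highest mean stood for each of 1082 genes with several rows, which left 22180 genes.

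Groups and replicate numbers came from the sample titles. Testing used limma 3.58.1 under R 4.3.3 (two-sided, lmFit then eBayes) and Benjamini-Hochberg adjustment over 22180 genes, threshold 0.05. The SE is moderated and intervals are 95%. A p-value sets the difference of the groups against the spread between samples of a group, moderated over 22180 genes. The labels do not say whether that spread is between clones. The members and the 10 other gene lists were chosen with earlier results of these data known, and no list was tested as a set.

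Genes named are the members, every called gene of a list with up to 6, otherwise the 3 lower and 3 higher with the smallest p, the 3 genes most like each called member, and Ccnd2, Lefty1 and Lefty2. Exceptions are stated. A planned comparison of protein sequences was not run, as none were used here. The fit was tested on data simulated for 22180 genes. It recovered 50.7% of 75 changes of 1.5-fold, 83.3% of 66 of 2-fold and 96.6% of 59 of 4-fold. Of 158 calls there, 8 were false. In the deposited data 3643 genes were called, so the adjustment of p differs and these rates need not hold for them. A gene that was not called may still differ. Alternatives tried were a replicate block, dropping each array in turn, a filter that kept genes at or above the median level, eBayes with trend and robust prior, median centring, quantile normalization, averaging a gene's rows, and array weights. Plots come from Python 3.11.15 and matplotlib 3.10.9.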

Additional observations from a re-analysis of the deposited data

How the results depend on the processing

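E2f2 was called lower and E2f6 higher under all 13 alternatives run, with log2 changes from −0.99 to −0.83 and from 0.51 to 0.65. One of these, averaging a gene's rows, could not alter their log2 changes, since each has a single row. The count of members called lower, 1, was 2 after the filter at the median level, 2 with an intensity trend and robust prior, 3 with array weights, and 1 to 3 when 1 array was left out. The additions were E2f5 (−0.26 and adjusted p = 0.017 after that filter, −0.26 and 0.00932 with trend and robust prior, −0.27 and 0.0281 with array weights) and Tfdp2 (−0.39 and 0.0316 with array weights). The array weight of miR-302 replicate 1 was 0.28, against 1.15 to 1.48 for the others. Members that were not called turned sign: E2f1 (−0.031), E2f4 (0.045) and Tfdp1 (0.078) with array weights. Leaving out 1 array gave −0.047 to 0.083 for E2f1, −0.0033 to 0.18 for E2f3, −0.14 to 0.087 for E2f4, −0.12 to 0.13 for Tfdp1, −0.29 to −0.21 for E2f5 and −0.44 to −0.17 for Tfdp2. The cause was not tested.

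The replicate numbers did not pair the samples: deviations of same-numbered arrays correlated at 0.02, 0.02 and 0.01 over genes, and control replicate 3 correlated best with miR-302 replicate 2. With the number as a block, 1 member was called lower and 1 higher. The counts over all genes were then 964 higher and 1329 lower, against 1592 and 2051 without it.

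Counts in the other lists moved more. With the block, DREAM genes lower were 0, germ line genes higher 1, replication genes higher 0 and lower 4, and primitive endoderm and fibroblast markers lower 1 each. After the filter at the median level, Polycomb complex genes higher were 1 of 10 and ESC markers lower 1 of 8. Germ line genes higher were 1 of the 6 kept, and primitive endoderm markers higher 3 and lower 1 of the 4 kept. Called genes below the median level, among them Tdrkh, Taf7l, Pdgfra and Cubn, were removed by this filter and not tested again. Trend with robust prior gave 17 replication genes lower, 1 complex gene higher and 2 ESC markers lower, and array weights 1 and 2 for the latter pair. Replication genes higher were 0 with median centring or quantile normalization. The mean of all rows gave 1 DREAM gene higher. When 1 array was left out, the lists' counts ranged as follows: G1 genes 1 to 2 higher and 4 to 7 lower, replication genes 0 to 1 higher and 4 to 12 lower, DREAM genes 0 to 3 lower, complex genes 1 to 2 lower, germ line genes 1 to 3 higher and 0 to 1 lower, apoptosis genes 0 to 1 higher, ESC markers 0 to 2 lower, trophectoderm markers 6 to 11 higher, primitive endoderm markers 3 to 5 higher and 1 to 2 lower, and fibroblast markers 2 to 3 higher and 1 to 4 lower.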
